A study of Rattus norvegicus with 5 samples.

Results

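The neuronal nicotinic acetylcholine receptor genes described here are the 9 genes Chrna2, Chrna3, Chrna4, Chrna5, Chrna6, Chrna7, Chrnb2, Chrnb3 and Chrnb4, 6 alpha and 3 beta subunits among the 32883 genes of the files. They were taken by name from the gene list, and all 9 were found, each under a single identifier. The study profiled single nuclei of the ventral tegmental area (VTA), the midbrain region that holds the dopamine neurons projecting to the nucleus accumbens and cortex. Bilateral VTA punches of each of 5 adult male Sprague-Dawley rats were combined into 1 library per rat with the 10x Genomics 3′ v3.1 chemistry. All 5 libraries carry the treatment label saline, and the study's text calls the animals drug-naïve, so there is 1 group and no treated sample. The comparisons below are therefore between cell classes of the same rats.

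Nicotinic receptors are ion channels of 5 subunits that open when acetylcholine or nicotine binds. In the brain, most are built from alpha and beta subunits together, with alpha4 and beta2 forming the common high-affinity receptor, whereas alpha7 can form channels alone. Alpha5 and beta3 are accessory subunits that do not build the binding site by themselves, and alpha6 is known from midbrain dopamine neurons, where it joins beta2 and beta3. Acetylcholine from brainstem neurons and inhaled nicotine both act on these receptors in the VTA, on dopamine neurons and on the GABA and glutamate neurons around them.

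Barcodes with at least 1000 unique molecular identifiers (UMIs, 1 per captured RNA molecule), more than 200 and fewer than 5000 genes and under 5% mitochondrial UMIs were kept, 22084 in all, and 50 barcodes occurred in more than 1 library. They held 12140 UMIs of the 9 genes, between 702 and 6274 per rat. Nuclei were clustered without the 9 genes, so that the classes did not depend on them, and classes were called dopaminergic-like, GABAergic-like or glutamatergic-like from marker genes. Dopaminergic-like nuclei had 5.92 ± 0.737 Th and 6.86 ± 2.22 Slc6a3 UMIs per 10000 (SD, n = 4), against 0.511 ± 0.330 and 0.437 ± 0.272 in GABAergic-like nuclei (n = 5), which had 2.99 ± 0.512 Gad1 UMIs per 10000. Slc17a6 was at 1.98 ± 0.428 in glutamatergic-like nuclei and at 0.305 ± 0.108 in dopaminergic-like ones. The classes were named from these markers, so these levels describe the naming and are no test of it.

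The libraries differed, and some stood apart. Totals ran from 10193355 to 88576210 UMIs. Rat 1 gave only 6 dopaminergic-like nuclei and 977 barcodes whose profile resembled free RNA, and it has no dopaminergic value below. Rats 2 to 5 gave 283, 310, 131 and 148 dopaminergic-like nuclei. Rat 3 was the shallowest, with a median of 1774 UMIs per dopaminergic-like nucleus against 8310 to 10349 in rats 2, 4 and 5, and it had no nuclei in the astrocyte and oligodendrocyte precursor clusters. In rat 3, 233 of the 310 dopaminergic-like nuclei were in the sub-cluster led by Bmp5, which held 20 to 58 nuclei in each of the other rats used. A sub-cluster of 198 neurons led by Slc6a3 and Tmem207 was kept out of the dopaminergic-like class, by a limit set after seeing the data, because it also held 33.6 Mbp UMIs per 10000, an oligodendrocyte gene. It took 19, 113, 0, 26 and 40 nuclei of rats 1 to 5 and had 1.07 Chrnb3 and 1.13 Chrna4 UMIs per 10000. Where leaving out rat 1 or 3 changed a result, the value without it is given. Fewer RNA molecules per nucleus and a different choice of nuclei cannot be told apart here.

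The genes themselves lie in groups. Chrna5, Chrna3 and Chrnb4 are neighbours on chromosome 8, and Chrna6 and Chrnb3 are neighbours on chromosome 16, with no protein-coding gene between them in the RefSeq annotation. Of the 9 genes, 6 matched an entry in the RefSeq promoter sequences (GRCr8), and Chrna2, Chrna6 and Chrnb3 did not. The 250 bases before the start are printed for the chromosome 8 neighbours, since they differ in which nuclei hold them, and for Chrna4 and Chrna7, which had the largest UMI shares in glutamatergic-like nuclei. Capitals mark the GC box GGGCGG on either strand, which is read by Sp1-type factors.
Chrna5: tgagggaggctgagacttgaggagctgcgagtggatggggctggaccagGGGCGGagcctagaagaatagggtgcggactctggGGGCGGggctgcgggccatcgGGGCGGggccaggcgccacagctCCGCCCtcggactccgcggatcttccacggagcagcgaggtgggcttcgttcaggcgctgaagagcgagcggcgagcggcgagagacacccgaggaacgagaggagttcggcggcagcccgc
Chrna3: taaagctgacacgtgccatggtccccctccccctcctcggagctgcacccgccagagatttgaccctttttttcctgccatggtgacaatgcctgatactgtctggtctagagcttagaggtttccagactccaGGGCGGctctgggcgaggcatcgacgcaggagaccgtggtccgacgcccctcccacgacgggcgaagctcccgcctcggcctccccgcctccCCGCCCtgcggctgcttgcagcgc
Chrnb4: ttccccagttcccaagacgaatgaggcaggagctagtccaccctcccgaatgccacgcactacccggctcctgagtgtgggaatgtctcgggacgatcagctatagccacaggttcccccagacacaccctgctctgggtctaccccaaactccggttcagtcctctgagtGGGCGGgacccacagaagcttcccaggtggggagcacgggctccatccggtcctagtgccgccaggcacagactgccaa
Chrna4: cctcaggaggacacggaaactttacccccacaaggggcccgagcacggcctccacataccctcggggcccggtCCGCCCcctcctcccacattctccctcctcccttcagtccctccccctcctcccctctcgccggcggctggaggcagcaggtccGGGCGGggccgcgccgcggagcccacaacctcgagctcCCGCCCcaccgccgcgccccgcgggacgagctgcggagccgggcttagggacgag
Chrna7: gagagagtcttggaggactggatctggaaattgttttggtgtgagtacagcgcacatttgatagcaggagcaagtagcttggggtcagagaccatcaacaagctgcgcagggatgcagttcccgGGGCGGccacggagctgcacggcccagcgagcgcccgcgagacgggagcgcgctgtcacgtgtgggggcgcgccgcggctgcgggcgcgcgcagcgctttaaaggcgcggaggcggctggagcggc
The windows are chr8:64265629-64265878 on the plus strand and, all on the minus strand, chr8:64311252-64311501, chr8:64333110-64333359, chr3:188534527-188534776 and chr1:126249130-126249379. Chrna5 had 4 GC boxes, Chrna4 had 3, Chrna3 had 2, and Chrnb4 and Chrna7 had 1 each. The GC box occurred in 30.5% of all 33469 promoter windows of the same length, and in each of the 6 matched ones. The motif TATAAA, which does not overlap it, was in none of the 6 and in 12.9% of all windows. GC content was 59.6% for Chrnb2, 62% for Chrnb4, 65.2% for Chrna3, 66% for Chrna7, 70.4% for Chrna5 and 74.4% for Chrna4, against a median of 51.2% over all windows.

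Dopaminergic-like nuclei held the most subunit RNA of the 3 neuron classes. The 9 genes together took 4.34 ± 0.464 UMIs per 10000 in them (SD, n = 4 rats), 2.27 ± 0.539 in GABAergic-like nuclei (n = 5) and 0.917 ± 0.403 in glutamatergic-like nuclei (n = 5). The lowest dopaminergic-like rat, at 3.86, was above the highest GABAergic-like rat, at 2.81, and the lowest GABAergic-like rat, at 1.59, was above the highest glutamatergic-like rat, at 1.34. Oligodendrocytes, taken as the background because free RNA reaches every droplet, had 0.269 ± 0.134 (n = 5).

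**Figure D1:**
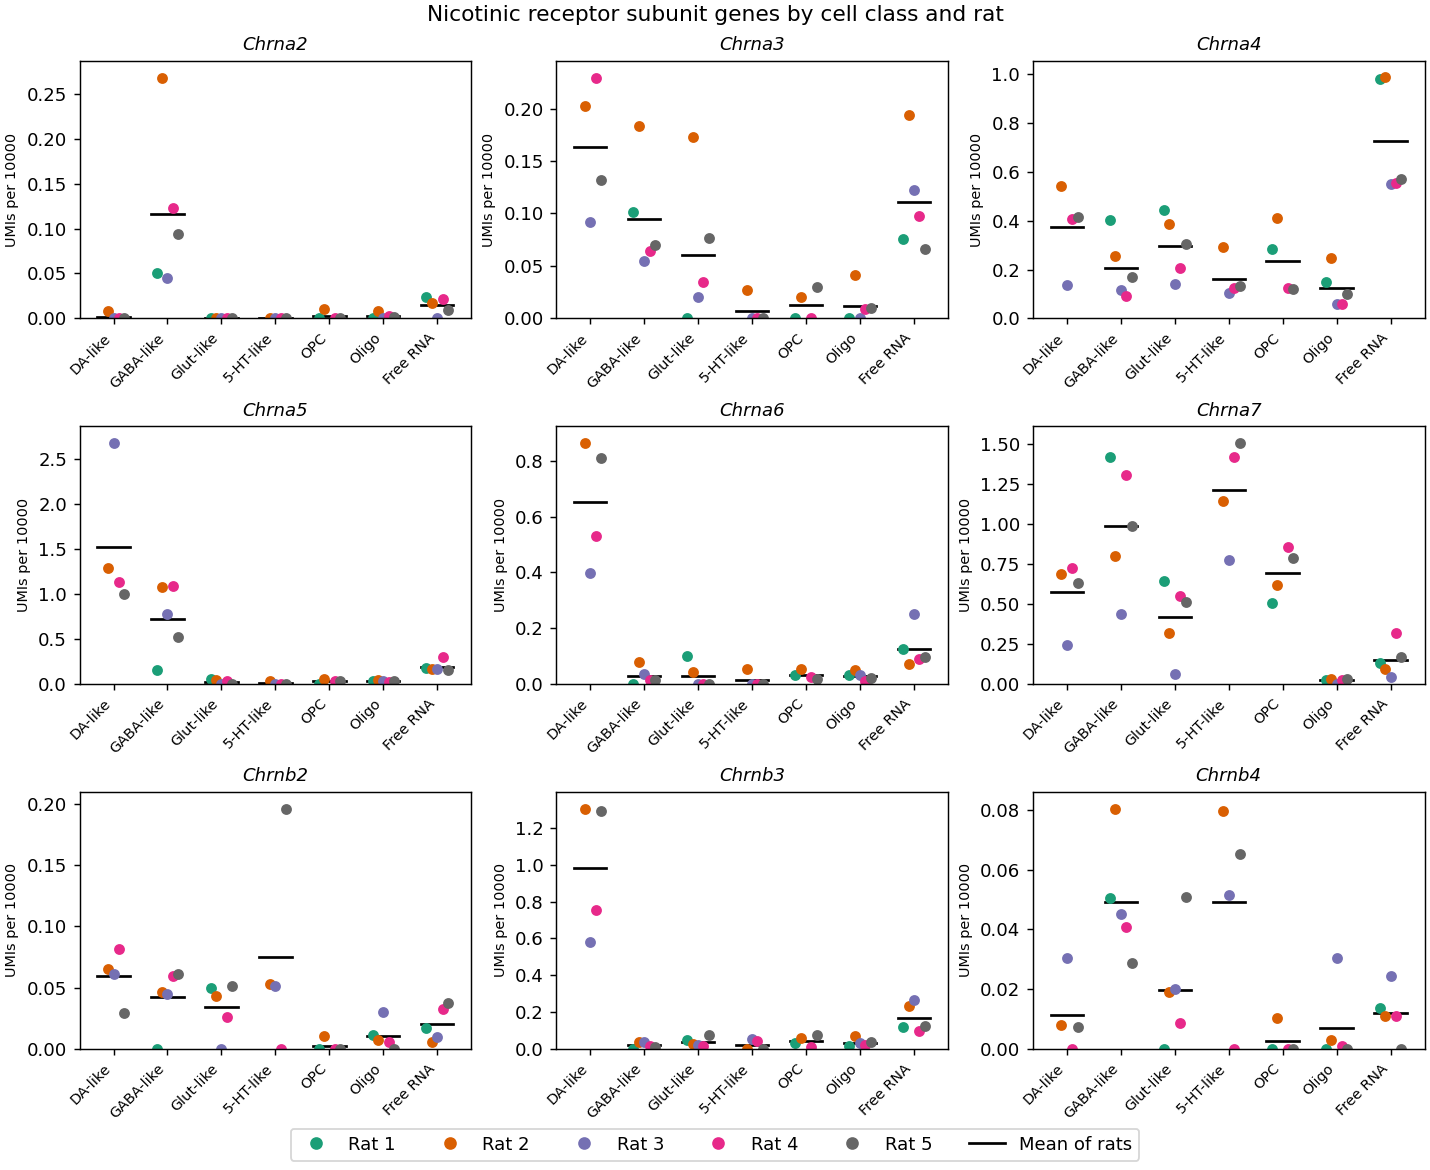
Level of each of the 9 subunit genes as UMIs per 10000 of all UMIs (y axis, each panel with its own scale) in 6 cell classes and in barcodes under 100 UMIs (free RNA). Each point is 1 rat and each bar the mean of the rats with at least 10 nuclei. Chrna6 and Chrnb3 stand up in dopaminergic-like nuclei, Chrna2 in GABAergic-like ones, and Chrna4 is highest in free RNA.

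Chrna6 (ENSRNOG00000012283), the alpha subunit known from dopamine neurons, had 0.863, 0.397, 0.532 and 0.812 UMIs per 10000 in the dopaminergic-like nuclei of rats 2, 3, 4 and 5. In GABAergic-like nuclei the same rats had 0.0764, 0.0361, 0.0137 and 0.0123, and in glutamatergic-like nuclei 9 UMIs were found in rat 2 and 0 in rats 3, 4 and 5. The classes did not overlap in any rat. Chrna6 was 17.3-fold higher in dopaminergic-like than in GABAergic-like nuclei (log2 difference 4.11, SE 0.26) and 33.6-fold higher than in glutamatergic-like nuclei (5.07, SE 0.37). The first value rose to 5.04 without rat 2. In rats 3, 4 and 5 alone the glutamatergic-like nuclei held 0 Chrna6 UMIs (rat 1, with no dopaminergic value, held 2), and against the limit of 3 counts over the class dopaminergic-like nuclei were at least 42.2-fold higher. Under the other alternatives tried, the difference from glutamatergic-like nuclei ran from 3.77, with classes set from the markers of each nucleus alone, to 5.69 in DESeq2. The log2 differences here and the adjusted p-values below are from edgeR's quasi-likelihood test on UMIs summed per rat and class, with the rat as a block and Benjamini-Hochberg adjustment over all genes tested. A gene entered the test when at least 2 sums reached a minimum level, and in both comparisons Chrna6 did so only through the dopaminergic-like sums. Entering this way favours genes that are higher in that class, so no p is given for Chrna6.

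Chrnb3 (ENSRNOG00000012448), the accessory beta subunit that assembles with alpha6, followed the same classes. Its levels in dopaminergic-like nuclei were 1.30, 0.581, 0.753 and 1.29 UMIs per 10000 in rats 2 to 5, and at most 0.0362 in GABAergic-like and 0.0764 in glutamatergic-like nuclei of any rat. It was 41.1-fold higher than in GABAergic-like nuclei (log2 difference 5.36, SE 0.21) and 35.8-fold higher than in glutamatergic-like nuclei (5.16, SE 0.25). Like Chrna6, it entered both tests only through the dopaminergic-like sums, and the folds are descriptions. With classes set from the markers of each nucleus alone the 2 differences were smaller, at 4.75 and 3.68, and the highest values over all alternatives were 5.52 and 5.74. Both genes were above the free RNA level of their own rat in 4 of 4 dopaminergic-like sums, and in GABAergic-like sums in 1 of 5 rats for Chrna6 and in 0 of 5 for Chrnb3.

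Chrna5 (ENSRNOG00000013610), the accessory alpha subunit, was found in dopaminergic-like and GABAergic-like nuclei and hardly at all in glutamatergic-like ones. Rats 2, 4 and 5 had 1.29, 1.13 and 1.0 UMIs per 10000 in dopaminergic-like nuclei, whereas rat 3 had 2.68, while rat 3 was the lowest rat for Chrna3, Chrna4, Chrna6, Chrna7 and Chrnb3 in the same nuclei. GABAergic-like nuclei of rats 1 to 5 had 0.152, 1.07, 0.777, 1.09 and 0.517, and rat 1 stood lowest on 3 UMIs from 32 nuclei. The make-up of the GABAergic-like class also differed by rat. A sub-cluster led by Tnc, low in Chrna5, held 17, 72, 271, 22 and 66 nuclei of rats 1 to 5. One led by Sox6, high in Chrna5, held 0, 81, 41, 103 and 61. The part of this make-up in the levels and in the mix below was not tested. Glutamatergic-like nuclei of all rats held 12 Chrna5 UMIs, so Chrna5 was 52.8-fold higher in dopaminergic-like (log2 difference 5.72, SE 0.29) and 34.8-fold higher in GABAergic-like nuclei (5.12, SE 0.30). It entered both tests only through the classes where it was high, so these folds are descriptions too. The size of both depended on the setting: over all alternatives the first ran from 3.49 to 6.58 and the second from 2.76 to 5.54, lowest with classes set from the markers of each nucleus alone and highest without rat 2. Between dopaminergic-like and GABAergic-like nuclei, Chrna5 was higher in the former in 4 of 4 rats (log2 difference 0.69, SE 0.21, adjusted p = 0.0272). That call was lost without rat 3 (0.38, adjusted p = 0.107), without rat 5 (0.58, adjusted p = 0.142) and in DESeq2 (0.75, adjusted p = 0.0539).

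Chrna2 (ENSRNOG00000017424), an alpha subunit with few known sites in the brain, was a GABAergic-like gene here. It had 0.0506, 0.267, 0.0452, 0.123 and 0.0943 UMIs per 10000 in GABAergic-like nuclei of rats 1 to 5, with rat 2 contributing 133 of 189 UMIs. Dopaminergic-like nuclei of the 4 rats held 2 UMIs, a level 51.3-fold lower (95% exact counting interval 14.0 to 426). Glutamatergic-like nuclei held 0 of 4333484 UMIs, and against the limit of 3 counts over the class GABAergic-like nuclei were at least 25-fold higher. Chrna2 passed the filter on low counts only through the GABAergic-like sums, so its passing the test in both comparisons is no support for the difference. Rat 2 carried much of both values: without it the dopaminergic-like nuclei held 0 UMIs and GABAergic-like nuclei were at least 10.8-fold higher, and against glutamatergic-like nuclei the bound was 7.06-fold. The direction was the same without each rat, and edgeR did not test the second comparison without rat 2 or rat 4. Counting intervals and limits cover counting error only.

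Chrna7 (ENSRNOG00000010853), the subunit of the alpha7 channel, was present in all 3 classes. GABAergic-like nuclei of rats 1 to 5 had 1.42, 0.796, 0.434, 1.31 and 0.984 UMIs per 10000, dopaminergic-like nuclei of rats 2 to 5 had 0.689, 0.245, 0.724 and 0.629, and glutamatergic-like nuclei of rats 1 to 5 had 0.644, 0.316, 0.0605, 0.545 and 0.510. Rat 3 was lowest in each class, and the ranges over rats overlapped, but the order of the classes was the same within each rat. Chrna7 was lower in dopaminergic-like than in GABAergic-like nuclei (log2 difference -0.56, SE 0.13, adjusted p = 0.00574). It was higher in dopaminergic-like than in glutamatergic-like nuclei (0.80, SE 0.20, adjusted p = 0.00987) and in GABAergic-like than in glutamatergic-like nuclei (1.34, SE 0.16, adjusted p = 0.000107). The second of these was lost without rat 2 (0.54, adjusted p = 0.166), in DESeq2 (0.85, adjusted p = 0.0679) and with classes set from the markers of each nucleus alone (0.03, adjusted p = 0.948).

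Chrna4 (ENSRNOG00000011202), the alpha subunit of the common high-affinity receptor, was 2.46-fold higher in dopaminergic-like than in GABAergic-like nuclei (log2 difference 1.30, SE 0.19, adjusted p = 0.000139). The levels in dopaminergic-like nuclei were 0.543, 0.138, 0.406 and 0.417 UMIs per 10000 in rats 2 to 5, against 0.257, 0.117, 0.0911 and 0.168 in GABAergic-like nuclei of the same rats. Against glutamatergic-like nuclei the log2 difference was 0.61 (SE 0.19, adjusted p = 0.0413), higher in 3 of 4 rats. That call was lost without rat 2, 4 or 5 (adjusted p = 0.147, 0.180 and 0.0915) with a higher minimum of UMIs per nucleus (adjusted p = 0.0729) and in DESeq2 (adjusted p = 0.339). Between GABAergic-like and glutamatergic-like nuclei the value was -0.65 (SE 0.20, adjusted p = 0.0847), lower in GABAergic-like nuclei in 5 of 5 rats, and it passed with no maximum on genes (-0.72, adjusted p = 0.00964).

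Chrna4 was also the member most abundant in free RNA. Barcodes under 100 UMIs held 0.729 ± 0.232 Chrna4 UMIs per 10000 (SD, n = 5), which was 47.4% ± 9.94 of their UMIs of the 9 genes, and each class sum of every rat was below its own rat's free RNA level. Subtracting the free RNA estimated from marker genes of other cell types took Chrna4 from 0.376 to 0.330 in dopaminergic-like nuclei, from 0.208 to 0.132 in GABAergic-like nuclei and from 0.298 to 0.234 in glutamatergic-like nuclei. In oligodendrocytes it went from 0.123 to 0.00288. The part of free RNA in the differences between classes was not tested.

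Chrna3 (ENSRNOG00000013829), which pairs with beta4 in receptors best known from the habenula and autonomic ganglia, did not pass the test in any comparison of neuron classes. Dopaminergic-like nuclei had 0.203, 0.0917, 0.229 and 0.132 UMIs per 10000 in rats 2 to 5, above the GABAergic-like value of the same rat in 4 of 4 (log2 difference 0.75, SE 0.27, adjusted p = 0.0609). That value passed when doublets were kept, with no filter on low counts, with no maximum on genes and without rat 2, with adjusted p between 0.0162 and 0.0480. Against glutamatergic-like nuclei it was 0.99 (SE 0.37, adjusted p = 0.0836), which passed with no filter, with no maximum on genes, with classes from the markers of each nucleus and without rat 2, with adjusted p between 0.00764 and 0.0116, though Chrna3 entered this test only through the dopaminergic-like sums. Between GABAergic-like and glutamatergic-like nuclei it was 0.38 (SE 0.35, adjusted p = 0.728).

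Chrnb2 (ENSRNOG00000020778), the beta subunit of most high-affinity receptors, was captured sparsely. It had 35 UMIs in dopaminergic-like, 56 in GABAergic-like and 15 in glutamatergic-like nuclei, and 0.0591 ± 0.0217 against 0.0530 ± 0.00851 UMIs per 10000 in dopaminergic-like and GABAergic-like nuclei of 4 rats (log2 difference 0.18, SE 0.35, adjusted p = 0.785). Its levels in dopaminergic-like nuclei ran from 0.0293 to 0.0813. Chrnb4 (ENSRNOG00000014427), the partner of alpha3, had 5, 62 and 8 UMIs in the 3 classes and was too sparse to be tested between them. Its level was higher in GABAergic-like than in dopaminergic-like nuclei in 4 of 4 rats, at 0.0488 ± 0.0222 against 0.0115 ± 0.0132.

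**Figure D2:**
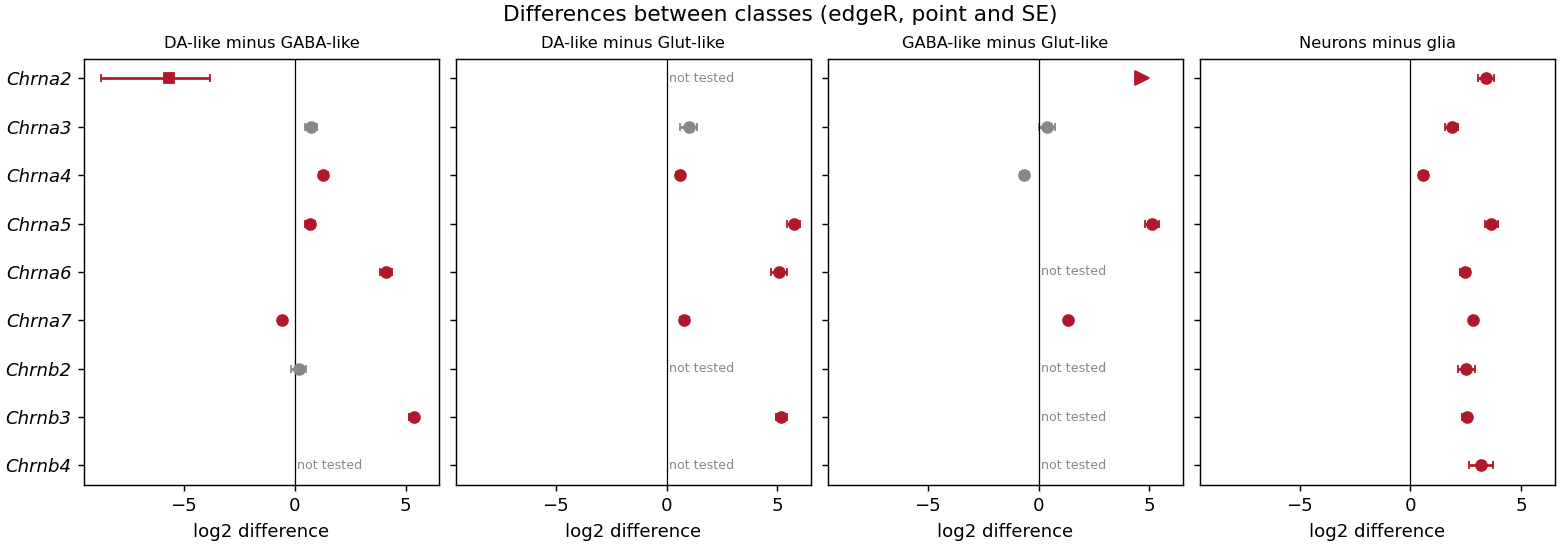
Log2 difference of each subunit gene between classes (x axis), with points for edgeR estimates and bars for 1 SE. Red marks an adjusted p under 0.05, also for genes that entered the test only through the class where they were high, and grey a value that did not pass. The square for Chrna2 is the ratio of counts with its 95% counting interval, the triangle a lower bound, and Chrna6 and Chrnb3 exceed 4 in both dopaminergic comparisons.

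Counted over the family, 8 genes passed the filter on low counts between dopaminergic-like and GABAergic-like nuclei, 4 were higher and 2 lower in dopaminergic-like nuclei, against 11.9% of 12040 genes tested called higher and 11.6% called lower (23.5% in all). The median log2 difference was 0.72 over the 8 genes and -0.02 over all genes. Against glutamatergic-like nuclei, 6 genes were tested and 5 were higher, with 8.37% of 11294 genes called higher and 8.98% called lower (17.3% in all) and medians of 3.03 and -0.03. Between GABAergic-like and glutamatergic-like nuclei, 5 were tested and 3 were higher, with 3.58% of 11366 genes called higher and 3.31% called lower (6.89% in all) and medians of 1.34 and -0.02. A gene could pass the filter through the class where it was high, so these counts describe the tested genes only. Of the genes that could pass through either class, 2 of 5 were higher (Chrna4 and Chrna5) and 1 lower (Chrna7) in the first comparison, 2 of 2 were higher in the second (Chrna4 and Chrna7) and 1 of 2 in the last (Chrna7). The 2 dopaminergic comparisons share their dopaminergic-like sums.

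The mix of subunits, each gene's share of the UMIs of all 9, differed among the 3 classes as well. In dopaminergic-like nuclei Chrna5 took 35.5% ± 18.8, Chrnb3 22.4% ± 7.18, Chrna6 14.8% ± 4.18, Chrna7 13.2% ± 5.42 and Chrna4 8.59% ± 3.59 (SD, n = 4). The Chrna5 share was 25.9%, 63.4%, 29.3% and 23.2% in rats 2 to 5, so rat 3 stood alone, and without it Chrna5 took 26.1% ± 3.07 and Chrnb3 25.2% ± 5.28 (n = 3). In GABAergic-like nuclei Chrna7 took 43.5% ± 16 and Chrna5 31.9% ± 16 (n = 5). Without rat 1 these were 38.2% ± 12.1 and 38.1% ± 9.14. In glutamatergic-like nuclei Chrna7 took 42.4% ± 15.9 and Chrna4 35.3% ± 11.4 (n = 5), below the 47.4% ± 9.94 of free RNA for Chrna4. Chrna5 took 2.07% ± 1.91 in glutamatergic-like nuclei. Chrna7 was first in rats 1, 4 and 5 and Chrna4 in rats 2 and 3, and without rat 4 the order turned, with Chrna7 at 37.2% and Chrna4 at 38.2%. The glutamatergic-like shares rest on 27, 219, 13, 100 and 42 UMIs of the 9 genes in rats 1 to 5. The make-up of this class also differed by rat. A sub-cluster with Pou4f2 held 1, 140, 52, 5 and 3 nuclei of rats 1 to 5, and one with Slc17a7 held 0, 55, 62, 0 and 0. In the one led by Ano5, with nuclei of all rats, Chrna7 and Chrna4 had 38 and 21 UMIs in rat 2 and 3 and 7 in rat 3. The Chrna5 share ranged from 7.0% to 48.9% over the rats in GABAergic-like nuclei and from 0% to 3.7% in glutamatergic-like nuclei.

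Chrnb3 and Chrna6 shares were higher in dopaminergic-like than in GABAergic-like and in glutamatergic-like nuclei in 4 of 4 rats, and the Chrna7 share was lower in 4 of 4. Flipping the sign of each rat's difference in an exact permutation test (two-sided) cannot give a p below 0.125 with 4 rats, and each of these differences had that p (0.225 after adjustment over the 27 shares compared). With 5 rats the limit is 0.063, reached by the higher Chrna2 and Chrna5 shares and the lower Chrna4 and Chrnb3 shares of GABAergic-like against glutamatergic-like nuclei.

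UMI counts can favour long genes, since nuclear RNA holds introns as well as exons. Chrna7 spans 125.757 kb and Chrna6 6.701 kb in the RefSeq annotation. Dividing UMIs by gene span gave Chrna6 45.1%, Chrna5 26.3% and Chrnb3 10.7% of the mix in dopaminergic-like nuclei, with Chrna6 first in rats 2, 4 and 5 and Chrna5 first in rat 3. These Chrna6 and Chrnb3 shares were not particular to that class. Neurons with both GABA and glutamate genes, kept outside the 3 classes, had 52.1% ± 11.7 Chrna6 and 9.43% ± 2.24 Chrnb3 per kb (n = 5). Oligodendrocytes had 31.5% ± 4.24 Chrna6 and 6.37% ± 2.44 Chrnb3 per kb (n = 5). In GABAergic-like nuclei Chrna5 took 36.4% per kb and was first in 4 of 5 rats, and Chrna7 took 13.2%. In glutamatergic-like nuclei Chrna4 took 39.5% per kb and was first in 5 of 5 rats, and Chrna7 took 11.8%. Chrna4 also took 25.4% per kb in microglia, 31.9% in oligodendrocytes, 36.0% in oligodendrocyte precursors and 38.9% in astrocytes. The part of free RNA in these shares was not tested. The order of genes within a class thus depended on this scaling, whereas differences of 1 gene between classes do not involve its length.

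**Figure D3:**
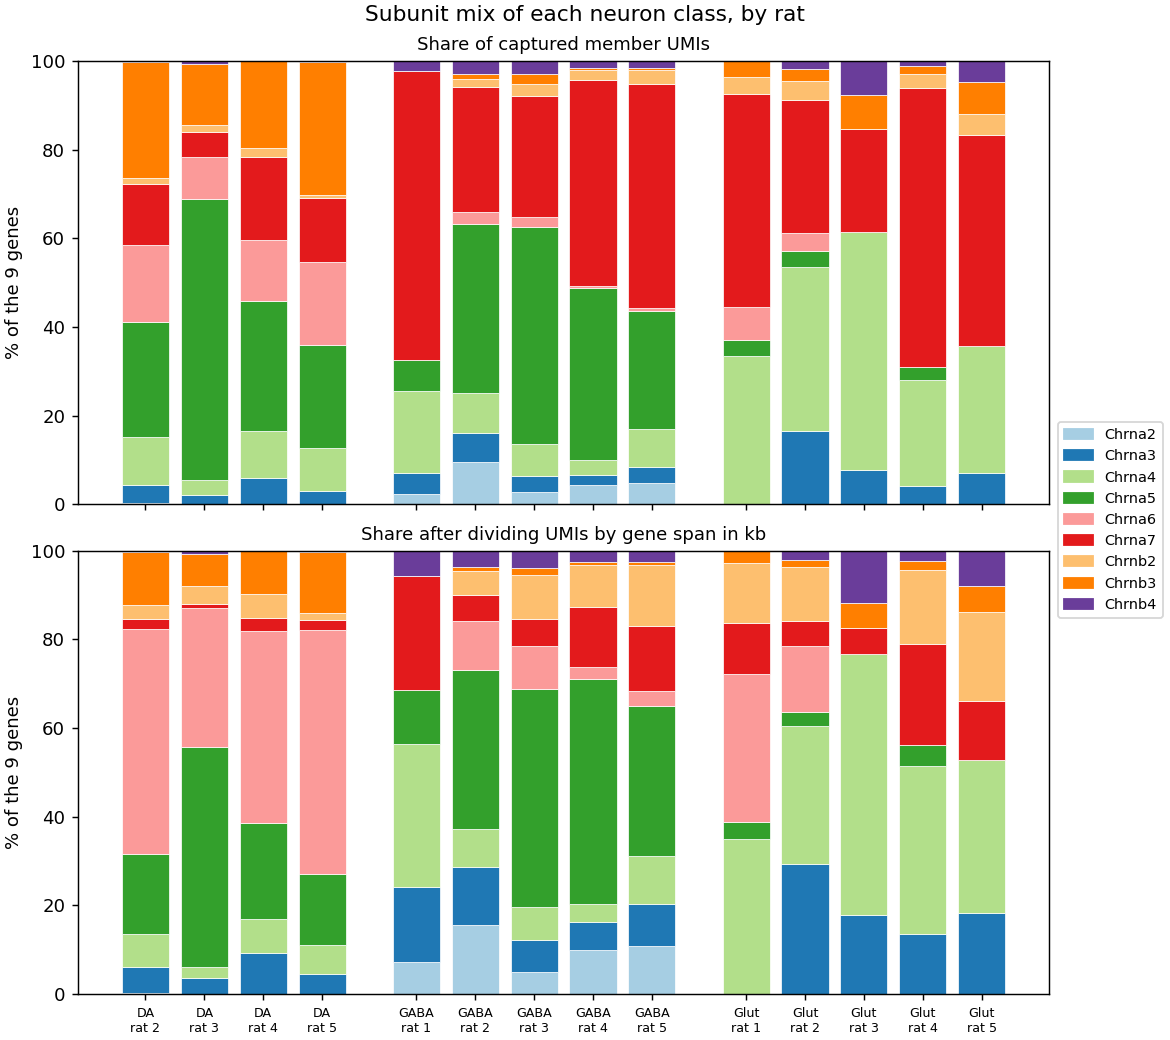
Share of each subunit gene among the 9 (y axis, %) for each rat and neuron class, as UMIs (top) and as UMIs per kb of gene span (bottom). Dopaminergic-like bars are split among Chrna5, Chrnb3, Chrna6 and Chrna7, with rat 3 mostly Chrna5, and glutamatergic-like bars are mostly Chrna7 and Chrna4 in UMIs.

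The share of nuclei with a UMI of a subunit gene depended on depth, and thinning to equal depth lowered it. A Chrna6 UMI was seen in 30.1% of dopaminergic-like nuclei on average over rats, in 1.48% of GABAergic-like nuclei and in 0.895% of oligodendrocytes. After thinning each nucleus to 1000 UMIs the shares were 5.81%, 0.277% and 0.381%, so the share over the GABAergic-like class as a whole was at the background. Chrnb3 went from 34.9% to 7.74% in dopaminergic-like nuclei, with 0.276% in thinned oligodendrocytes, and Chrna5 from 44.2% to 14.1%, with 0.179%. Median depth was 6358 UMIs in dopaminergic-like nuclei and 2852.5 in oligodendrocytes. At least 1 of the 9 genes was seen in 33.5% ± 1.61 of thinned dopaminergic-like nuclei (SD, n = 4), in 17.5% ± 5.34 of GABAergic-like, in 8.94% ± 4.17 of glutamatergic-like nuclei and in 2.46% ± 1.66 of oligodendrocytes (n = 5 each). At full depth, 3 or more of the 9 were seen together in 41.7%, 2.90%, 38.2% and 37.2% of the dopaminergic-like nuclei of rats 2 to 5, the low value being that of the shallow rat 3.

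Whether Chrna6 and Chrnb3 sit in the same dopaminergic-like nuclei could not be settled. At full depth, Chrnb3 was seen in 53.7% of nuclei with a Chrna6 UMI and in 25.9% of those without, higher in 4 of 4 rats, but deeper nuclei hold more of both genes. After thinning, the shares were 12% and 7.56%, a difference of 4.48 ± 12.1 percentage points that was positive in 3 of 4 rats (exact sign-flip permutation test, two-sided p = 0.63, smallest possible 0.125). The thinned comparison rested on 4 to 27 nuclei with a Chrna6 UMI per rat, 6 of which held both genes. Of the other 7 subunit genes set against Chrna6 in the same way, Chrna5 was higher at full depth in nuclei with a Chrna6 UMI in 4 of 4 rats, by 22.6 percentage points, but after thinning in 2 of 4, by 4.87 ± 23.5. Chrna7 was higher after thinning in 4 of 4, by 9.87 ± 6.25 percentage points, and at full depth in 3 of 4, by 11.7 ± 11.2. Each of the values in 4 of 4 rats had the smallest possible p of that exact test, 0.125, before any adjustment over the 8 genes.

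Neurons were split into 29 sub-clusters, also without the 9 genes. Of the 4 dopaminergic-like sub-clusters, the one led by Tmem207 and Ntf3 (170 nuclei, none from rat 3) had the most Chrna6 and Chrnb3, at 1.27 and 1.89 UMIs per 10000. The one led by Vip (168 nuclei) had 0.36 and 0.50, and the ones led by Bmp5 and by Plod2 and Aldh1a1 had 0.79 and 1.0 Chrnb3. The order of these 3 was not the same in each rat: in rat 4, Chrnb3 was at 0.381 in the Bmp5 and 0.548 in the Vip sub-cluster. In the 2 rats with at least 20 nuclei in both, Chrnb3 was at 1.76 and 2.37 in the Tmem207 sub-cluster and at 0.50 and 0.38 in the Vip sub-cluster. These 2 sub-clusters were picked as highest and lowest on the same UMIs, so the gap is a description and no test. In the Bmp5 sub-cluster, Chrna5 was at 2.95 in rat 3 and at 1.31, 1.61 and 1.28 in rats 2, 4 and 5, so rat 3 was also highest among nuclei of 1 sub-cluster. The same held in the Plod2 sub-cluster, at 1.96 against 0.498 to 1.40. It was not limited to dopaminergic-like nuclei. In GABAergic-like sub-clusters led by Sox6 and by Nox4, rat 3 had 3.43 and 4.49 Chrna5, against 1.35 to 2.21 and 2.43 to 2.90. In one led by Tnc, where Chrna5 was low, rat 3 was not highest. It had 0.0994 on 4 UMIs, against 0.166, 0 and 0.0761 in rats 2, 4 and 5.

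Some dopamine neurons also carry Slc17a6, the vesicular glutamate transporter. In rats 2 to 5, 47, 10, 37 and 38 dopaminergic-like nuclei had an Slc17a6 UMI. The gene was near background in this class, at 0.305 ± 0.108 UMIs per 10000 (n = 4) against 0.234 ± 0.119 in oligodendrocytes (n = 5). The part of free RNA in this split was not tested. Among the 4 dopaminergic-like sub-clusters, Slc17a6 was highest in the Vip one, at 0.695, which also had the least Chrnb3. Chrna5 was at 0.70, 0.87, 1.12 and 0.37 UMIs per 10000 in them and at 1.41, 2.74, 1.14 and 1.22 in the nuclei without one, so it was lower in 4 of 4 rats, though almost equal in rat 4. Chrnb3 was at 0.72, 0.43, 0.61 and 1.2 against 1.42, 0.59, 0.82 and 1.33, also lower in 4 of 4. Chrna3 went the other way in 3 of 4 rats, at 0.29, 0, 0.27 and 0.14 against 0.19, 0.095, 0.21 and 0.13. The rat 3 values of the nuclei with Slc17a6 rest on 2 Chrna5 UMIs and 1 Chrnb3 UMI, and the differences were not tested.

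Chrna6 and Chrnb3 also occurred together outside the dopaminergic-like class. A sub-cluster of 252 neurons led by Slc26a7, Npsr1 and Wnt2, which held both Gad2 and Slc17a6 UMIs and was left without a transmitter name, had 0.63 Chrna6 and 0.86 Chrnb3 UMIs per 10000. In rats 2 to 5, Chrna6 was at 0.78, 0.80, 0.44 and 0.59 there, and Chrnb3 at 1.0, 0.44, 0.69 and 1.15. Its Th and Slc6a3 levels were 2.03 and 1.34, below the 6.0 and 11.6 of the Tmem207 sub-cluster. They were nearer to the 4.47 and 2.999 of the Vip sub-cluster, the lowest of the dopaminergic-like ones. Ddc, at 10.2 to 15.4 in the dopaminergic-like sub-clusters and 0.262 to 0.586 in the GABAergic-like ones, was at 6.95. The Slc26a7 sub-cluster had a dopaminergic marker score of 1.04, under the limit of 1.5. Its Gad2 and Slc17a6 levels were 5.94 and 1.03, against 0.237 and 0.0678 in the Tmem207 and 0.279 and 0.695 in the Vip sub-cluster. Its Gad1 level, 0.158, was close to the 0.119 of the Tmem207 sub-cluster and below the 1.43 to 4.45 of the GABAergic-like sub-clusters. Slc32a1 went the other way, at 0.779, above the 0.113 of the Tmem207 sub-cluster and within the 0.478 to 1.85 of the GABAergic-like ones. The part of free RNA in these values was not tested.

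Among the 10 GABAergic-like sub-clusters, 3 carried most of the Chrna5. It was at 3.51 in the one led by Enpp3 and Penk, at 2.73 in the one led by Nox4 and Meis2 and at 1.80 in the one led by Sox6 and Crhr2, and between 0.00 and 0.62 in the other 7. The Enpp3 and Nox4 sub-clusters also had the most Chrna2, at 0.76 and 0.77 UMIs per 10000, and the Enpp3 and Sox6 ones the most Chrna3, at 0.50 and 0.27, and the most Chrnb4, at 0.13 and 0.20. Rat 2 gave 33 of the 49 Chrna3 UMIs of the Sox6 sub-cluster and was the only rat with 20 or more nuclei in the Enpp3 one. Without rat 2, Chrna3 was at 0.24 in the Enpp3, 0.12 in the Sox6 and 0.14 in the Nox4 sub-cluster, so Sox6 was no longer second, and Chrnb4 was at 0.10 in Enpp3 and 0.12 in Sox6. In the Nox4 sub-cluster Chrna2 was at 0.75, 0.22 and 0.82 in rats 2, 3 and 4. Chrna6 was uneven over the class. It was at 0 in the Sox6 sub-cluster in rats 2 to 5 and at 0.192, 0 and 0.123 in the Nox4 one in rats 2, 3 and 4. In the one led by Tssk2 and Prdm16 it was at 0.243 and 0.299 in rats 2 and 3, on 10 and 3 UMIs. The part of free RNA in these values was not tested. Chrna7 was highest in other GABAergic-like sub-clusters, at 1.86 in the one led by Calcr and 1.30 in the one that held Sox14 and Ikzf1, an order that turned without rat 2 (1.38 and 1.45). Of the glutamatergic-like sub-clusters, the one with Pou4f2 (140 of its nuclei from rat 2) had 0.37 Chrna3, against 0.02 and 0.04 in the other 2, and 0.14 on 2 UMIs without rat 2.

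**Figure D4:**
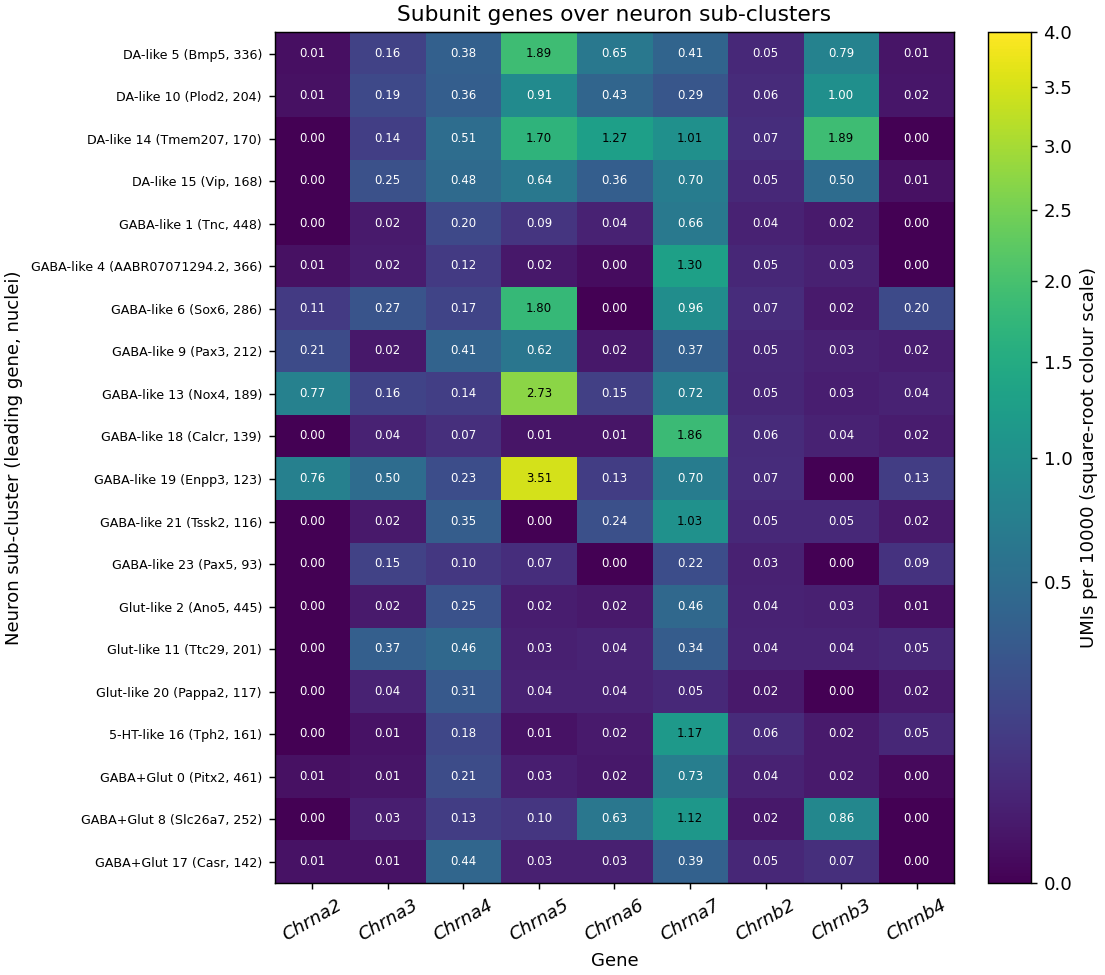
UMIs per 10000 of the 9 subunit genes (columns) in 20 of the 24 neuron sub-clusters with at least 50 nuclei, the 4 with mixed markers left out (rows, named by class, leading gene and nuclei), pooled over rats, on a square-root colour scale. Chrna6 and Chrnb3 are high in the 4 dopaminergic-like rows and the Slc26a7 row, and Chrna5 and Chrna2 share the Nox4 and Enpp3 rows.

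Over the 20 sub-clusters of at least 50 nuclei without mixed markers, Chrna6 and Chrnb3, neighbours in the genome, had the highest correlation of any pair of the 9 genes (Pearson's r = 0.89 on log2 levels). Chrna3 followed its neighbours Chrna5 (r = 0.69) and Chrnb4 (r = 0.60), but Chrna5 and Chrnb4, of the same group, had r = 0.36, below Chrna5 with Chrna6 on another chromosome (r = 0.50), and Chrna2 followed Chrna5 (r = 0.66), likewise on another chromosome. The lowest value was that of Chrnb3 and Chrnb4 (r = -0.44). These values are descriptions over sub-clusters that share libraries, free RNA and depth. Among 11382 genes, those most like Chrna6 were Akr1b1, Trpc6 and Cnksr2 (r = 0.88, 0.88 and 0.87), and those most like Chrnb3 were Tmem207, Tfcp2l1 and Synpo2 (0.94, 0.94 and 0.94). The pattern of Chrna5 was closest to AC108616.1, Sphkap and Akna (0.93, 0.92 and 0.80), and that of Chrna7 to Pdcl2, Gpr61 and Pced1b (0.85, 0.82 and 0.81). For Chrna3 they were Mettl22, Cplx2 and Gab1 (0.75, 0.74 and 0.74), and for Chrna4 Osbpl3, Frmpd1 and Armc10 (0.79, 0.73 and 0.72).

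**Figure D5:**
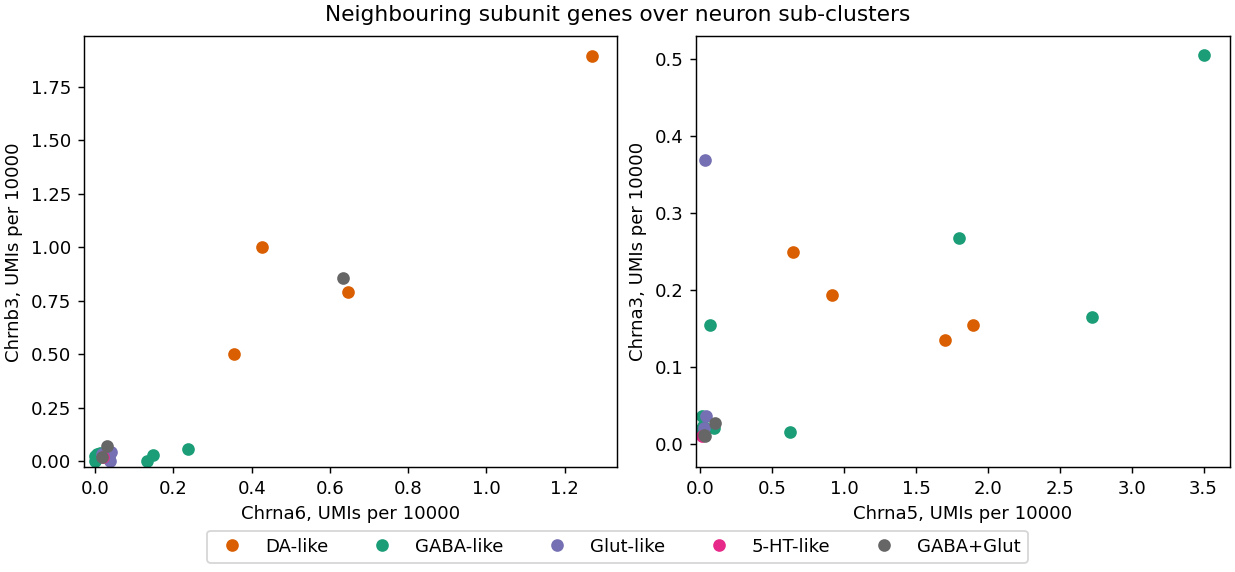
Levels of 2 pairs of neighbouring genes over the 20 sub-clusters (UMIs per 10000, linear axes), 1 point per sub-cluster, coloured by class. Chrna6 and Chrnb3 rise together in the dopaminergic-like points and 1 point with GABA and glutamate genes, whereas for Chrna5 and Chrna3 a glutamatergic-like point has Chrna3 at 0.37 with hardly any Chrna5.

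Glia held little subunit RNA, with 1 exception. All 9 genes were tested between neurons and glia and all 9 were higher in neurons, where 28% of 15479 genes were called higher and 42.2% lower (70.2% in all), and the median log2 difference was 2.54 over the 9 genes against -0.23 over all genes tested. Chrna2, Chrnb2 and Chrnb4 entered that test only through the neurons. The smallest difference was that of Chrna4 (0.58, SE 0.20, adjusted p = 0.0194) and the largest that of Chrna5 (3.65, SE 0.29, adjusted p = 2.66e-07). Of glial UMIs, 21.2% ± 6.72 were estimated to be free RNA (SD, n = 5), and subtracting it took Chrna4 in glia from 0.131 to 0 UMIs per 10000.

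The exception was Chrna7 in oligodendrocyte precursor cells. It was at 0.505, 0.617, 0.853 and 0.788 UMIs per 10000 in the precursors of rats 1, 2, 4 and 5, against 0.0257, 0.0305, 0.0256 and 0.0269 in the oligodendrocytes of the same rats, a ratio of means of 25.4 (exact sign-flip permutation test, two-sided p = 0.125, the smallest possible with 4 rats). The precursors were also above the free RNA level of their rat in 4 of 4, and after subtraction of free RNA, estimated at 43.7% of their UMIs, 0.616 ± 0.126 remained. That estimate came from neuron markers. Of these, Snap25 was at 5.32 in the precursor cluster, against 1.65 to 2.49 in oligodendrocyte clusters. Th, not among them, was at 1.07, within the 0.619 to 1.65 of oligodendrocyte clusters. Whether precursors transcribe some of the neuron markers was not tested, so the estimate may be too high. A Chrna7 UMI was seen in 5.93% ± 3.25 of thinned precursors and in 0.161% ± 0.150 of thinned oligodendrocytes. Astrocytes had 0.0679 ± 0.0333 Chrna7 UMIs per 10000 (n = 4), above oligodendrocytes but below their free RNA level in 4 of 4 rats. Microglia had 0.0983 ± 0.0732 (n = 5), above oligodendrocytes in 4 of 5 rats and above their free RNA level in 1 of 5. The 9 genes together took 1.05 ± 0.160 in precursors, against 0.917 ± 0.403 in glutamatergic-like nuclei, 0.548 ± 0.202 in microglia and 0.317 ± 0.111 in astrocytes. Serotonergic-like neurons had 1.21 ± 0.328 Chrna7 UMIs per 10000 (n = 4, 15 to 79 nuclei per rat), and Chrna7 took 78% ± 8.90 of their subunit UMIs.

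Partners of the receptors were read from a list of 25 other cholinergic genes, 24 of which were in the files. Between dopaminergic-like and GABAergic-like nuclei, 14 were tested, 2 were higher and 6 lower, beside 11.9% higher and 11.6% lower over all genes tested. Chrm5, the muscarinic receptor known from dopamine neurons, was at 2.51 ± 0.485 against 0.823 ± 0.306 UMIs per 10000 (log2 difference 1.62, SE 0.12, adjusted p = 1.78e-07). The other muscarinic receptors that passed, Chrm2 and Chrm3, were lower in dopaminergic-like nuclei by log2 differences of -2.87 and -3.20, on 6 against 88 and 8 against 140 UMIs. Lypd6b and Lypd6, small membrane-anchored proteins of the Ly6 family that modulate nicotinic receptors, were lower (-2.81 and -2.97), as was Lynx1, another of the family (-0.60, adjusted p = 0.0197). Chrm2, Chrm3 and Lypd6 (11 against 168 UMIs) entered this test only through the GABAergic-like sums, so their passing it is no support for the difference. Against glutamatergic-like nuclei, 11 were tested, 2 were higher and 2 lower (8.37% and 8.98% over all genes), with Chrm5 at 2.40 (adjusted p = 1.62e-06) and Lynx1 at -1.07 (adjusted p = 0.00347). Between GABAergic-like and glutamatergic-like nuclei, 15 were tested, 3 were higher and 1 lower (3.58% and 3.31% over all genes). Lypd6b was higher in 5 of 5 rats (1.71, SE 0.19, adjusted p = 4.91e-05), as was Chrm5 (0.82, adjusted p = 0.0343), while Lypd6 (2.36) and Chrm4 (-2.83), which entered the test only through the class where they were high, were larger in size but did not move 1 way in every rat.

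Between neurons and glia, 16 of the list were tested, 12 were higher and 1 lower in neurons, beside 28% higher and 42.2% lower over all genes tested. Lypd6b (log2 difference 3.91), Chrm5 (2.35), Chrnb1 (2.19), Chrm2 (1.63) and Lypd6 (1.45) were higher in neurons. Bche, the butyrylcholinesterase, was lower in neurons (-1.62, SE 0.29, adjusted p = 0.000316).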

How the data were processed

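The authors made the UMI counts with the 10x Genomics pipeline (Cell Ranger 8.0.1 in the submitters' processing notes) and deposited them as unfiltered matrices of whole-number counts, 1 per library; the genome build was not given in the sources used here. Barcodes with at least 1000 UMIs, more than 200 and fewer than 5000 genes and under 5% mitochondrial UMIs were kept. Scrublet's own threshold marked almost no nuclei, so the highest scores were removed at 0.8% per 1000 nuclei, which left 21016 nuclei. Counts were log-normalised, centred by library and clustered (scanpy 1.11.5, leidenalg 0.10.2, 3000 variable genes, 30 principal components, 20 neighbours, resolution 1.0, and 1.2 for neurons) without the 9 genes, the cholinergic list and mitochondrial genes. Clusters whose profile had r of at least 0.75 with that of barcodes under 100 UMIs (3814 nuclei), unnamed ones (330) and neurons with mixed markers (1084) were left out of the classes. Sub-clusters were named from marker scores (at least 1.5 for dopaminergic and 2.0 for serotonergic genes) or a 3-fold excess of GABA over glutamate genes or the reverse. These thresholds were set after the clusters were seen.

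UMIs were summed per rat and class, with at least 10 nuclei, and tested with edgeR 4.0.16 (TMM, filterByExpr, quasi-likelihood F test, rat as block, adjusted p under 0.05), or with DESeq2 1.42.0 as an alternative (R 4.3.3). The block was used because both sums come from 1 animal: deviations of the same rat correlated at 0.22 to 0.79 over the 18 pairs. The edgeR script was tested on simulated data with known fold changes. Levels are UMIs per 10000 of a class. Thinning drew 1000 UMIs per nucleus. Free RNA was subtracted by the share estimated from other cell types' markers. Correlations used log2 of the level plus 0.05. The labels do not say that the libraries are separate animals; the study's methods do. Nuclei were not treated as replicates.

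All 9 genes were named. Of the cholinergic list, up to 6 genes per comparison with the largest absolute log2 difference were named among those that passed and moved 1 way in every rat, and for each member with at least 200 UMIs in neurons the 3 genes most alike over sub-clusters of at least 50 nuclei. The genes and lists were chosen with earlier results of these data known.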

Additional observations from a re-analysis of the deposited data

Results flagged for a closer look

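In the dopaminergic-like nuclei, rat 3 lay far from the other 3 rats in 3 values by Dixon's 95% criterion. Its Chrna5 level was 2.68 UMIs per 10000, against 1.0 to 1.29. Its Chrna5 share of subunit UMIs was 63.4%, against 23.2% to 29.3%, and its Chrna4 share was 3.26%, against 9.64% to 10.9%, on 9 UMIs. Rat 2 was the only rat with Chrna2 in these nuclei, on 2 UMIs, at 0.00810 per 10000 and 0.163% of subunit UMIs. In GABAergic-like nuclei, Chrnb2 was at 0 in rat 1, with 32 nuclei, against 0.0452 to 0.0615 in the others. Of 59 groups of values examined, 6 met the criterion, and chance flags about 1 in 20 of independent, continuous values. That rate is no guide here. A gene above 0 in 1 rat alone always has a ratio of 1, as Chrna2 did, and the level and share of a gene depend on each other.

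Barcodes under 100 UMIs, which no comparison used as samples, held subunit UMIs above the limit of 3 counts for every gene: 689 of Chrna4, 156 of Chrna5, 153 of Chrnb3, 118 of Chrna6, 111 of Chrna7, 98 of Chrna3, 15 of Chrnb2, 13 of Chrna2 and 12 of Chrnb4.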

How the results depend on the processing

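Alternatives, 13 or fewer for each of 28 log2 differences of subunit genes, gave 353 values in all. Of these, 326 stayed on their side of the threshold, 18 lost it and 9 gained it. None changed direction where it or the main value passed. Chrnb2 between dopaminergic-like and GABAergic-like nuclei, which passed in no alternative, ran from -0.08 to 0.43. The 6 genes called between dopaminergic-like and GABAergic-like nuclei became 5 to 7 when a rat was left out, the 5 against glutamatergic-like nuclei 4 to 5, the 3 of GABAergic-like against glutamatergic-like nuclei 2 to 3, and the 9 of neurons against glia stayed 9. Without the replicate block the 4 counts were 2, 3, 1 and 7 (in the last, Chrna4 was lost with adjusted p = 0.242 and Chrna2 was not tested), with 647, 422 and 108 of all genes called in place of 2826, 1959 and 783, and 5789 in place of 10870 for neurons against glia. DESeq2 called 3 against glutamatergic-like nuclei, with 1191 of all genes, and 1882 of all genes between dopaminergic-like and GABAergic-like nuclei. With no maximum on genes 5 were called between GABAergic-like and glutamatergic-like nuclei. With classes from the markers of each nucleus alone, 1268 and 521 genes were called in the 2 glutamatergic comparisons. The causes of these changes were not tested. Counting as dopaminergic-like a sub-cluster of 198 neurons led by Slc6a3 and Tmem207, left out of the classes because it also held oligodendrocyte markers, added after seeing the data, left 6 and 5 called. The thinned difference in Chrnb3 between nuclei with and without Chrna6 turned to -1.62 percentage points with no maximum on genes and to -1.54 with that sub-cluster, and ran from -0.00390 to 9.59 when a rat was left out. The share of dopaminergic-like nuclei with a Chrna6 UMI was 30.1% unthinned and 5.81% thinned, and the thinned share was 4.56% to 6.72% when a rat was left out. Per kb, also added after seeing the data, the Chrna7 share was 13.2% in GABAergic-like and 11.8% in glutamatergic-like nuclei. Leaving out a rat gave 38.2% to 47.6% and 37.2% to 47.2% for those shares in UMIs, and 26.1% to 39.5% for the Chrna5 share in dopaminergic-like nuclei. Chrnb2 and Chrnb4 had 136 and 81 UMIs in neurons, and with 4 or 5 rats no exact test over rats could reach 0.05.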
